A study of Homo sapiens with 20 samples.

Results

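WM164 is a human melanoma cell line with a mutant BRAF kinase. H3K4me3, the trimethylation of histone H3 at lysine 4 that marks active promoters, was examined in it at the genes of 5 melanocyte lineage transcription factors: MITF, SOX10, PAX3, TFAP2A and LEF1. Members were chosen by position alone, as the merged peak regions with a peak within 5 kb of a start of MITF (A and M forms), SOX10, PAX3 or LEF1, or of the whole TFAP2A gene, on GRCh37. This gave 7 regions of 31428. Within 5 kb of these positions lay 116 of the 306295 peaks of 10 deposited lists. The regions also take in merged peaks farther out, which count in their covered length. Resistant cells were kept in 50 nM dabrafenib, a BRAF inhibitor, for more than 90 days, and colonies were those present after 45 days at the same dose. NRAS Q61K cells overexpressed an activated RAS protein, which acts upstream of BRAF, GFP cells overexpressed green fluorescent protein and are set beside them, and parental cells received DMSO for 3 days. Each group had 2 H3K4me3 libraries, and all came from 1 cell line. The sources used here do not give the promoter that drives each transgene, or whether GFP and NRAS Q61K cells received DMSO. Resistant, colony and parental cells were fixed for 10 minutes in 4% paraformaldehyde, and no fixation is given for the transgene cells.

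MITF directs pigment cell identity and survival and binds its targets as a helix-loop-helix dimer. Its A start serves a widely used long form, while the M start, deep inside the gene, serves the form particular to melanocytes and melanoma. SOX10 and PAX3 are neural crest factors that activate the M start, LEF1 carries Wnt and beta-catenin signals to it, and TFAP2A binds many of the same enhancers as MITF. H3K4me3 domains that spread far from a start are often found at genes of cell identity.

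The promoter sequences of both MITF starts and of the inner TFAP2A start are shown because both MITF starts are compared in height and length and because the TFAP2A domain lies inside the gene. They come from RefSeq on GRCh38.p14, 250 bases before to 50 after a start, and capitals mark the letters of a motif found. The MITF A window is chr3:69739214-69739513 and the M window chr3:69936342-69936641, both on the plus strand. The TFAP2A window is chr6:10412342-10412641 on the minus strand. The last RefSeq start of MITF lies 197128 bp from the outermost, and the rule's A and M starts lie 197165 bp apart on GRCh37, a difference of 37 bp by which the windows were matched to the starts.
MITF, A start: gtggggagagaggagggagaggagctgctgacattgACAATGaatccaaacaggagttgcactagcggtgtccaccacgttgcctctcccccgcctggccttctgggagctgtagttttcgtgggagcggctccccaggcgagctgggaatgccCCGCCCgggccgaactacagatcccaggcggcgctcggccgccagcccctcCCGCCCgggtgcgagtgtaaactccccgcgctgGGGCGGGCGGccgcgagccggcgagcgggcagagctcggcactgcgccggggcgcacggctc
MITF, M start: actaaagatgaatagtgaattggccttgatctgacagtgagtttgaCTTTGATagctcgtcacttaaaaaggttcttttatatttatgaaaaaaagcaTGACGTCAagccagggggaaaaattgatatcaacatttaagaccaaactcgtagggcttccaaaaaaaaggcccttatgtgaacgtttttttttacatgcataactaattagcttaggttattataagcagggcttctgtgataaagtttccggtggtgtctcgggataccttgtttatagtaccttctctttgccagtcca
TFAP2A, inner start: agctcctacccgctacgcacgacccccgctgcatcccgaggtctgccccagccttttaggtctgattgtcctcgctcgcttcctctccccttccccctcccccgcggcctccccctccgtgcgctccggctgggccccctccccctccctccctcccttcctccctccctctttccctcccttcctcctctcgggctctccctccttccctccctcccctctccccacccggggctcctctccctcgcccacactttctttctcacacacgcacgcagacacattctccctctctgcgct
The 6 motifs were searched on both strands: GCCNNNGGC for TFAP2, CATGTG for MITF, TGACGTCA for the cyclic AMP response element, ACAATG for SOX, ATCAAAG for LEF1 and TCF, and GGGCGG for Sp factors. The A window held 30 CpG pairs, 1 SOX and 4 Sp motifs, of which a pair overlaps. The M window held 6 CpG pairs, 1 LEF1 motif at -204 from the start on the reverse strand and 1 cyclic AMP response element at -152. Of 35116 RefSeq promoters, 2.62% held the LEF1 motif, 1.85% the cyclic AMP element, 10.8% the SOX motif and 45% the Sp motif, and the median CpG count was 14. The inner TFAP2A window held 18 CpG pairs and, like the PAX3 window with 21, none of the 6 motifs. A motif match is a description of these letters and not a bound site.

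All 5 genes carried H3K4me3 peaks in all 10 libraries. Other markers of the lineage, and of other cell types, were not analysed here. The region at the MITF A start was chr3:69786360-69792886 and that at the M start chr3:69984282-69990391 (GRCh37, as are all positions from here on). SOX10 lay in chr22:38370407-38388172, PAX3 in chr2:223160480-223165111 and LEF1 in chr4:109076300-109095691. TFAP2A had 2 regions, a domain at chr6:10402988-10416356 and a short site at chr6:10395419-10396734. A peak spanned the start of each gene except TFAP2A in every library. At TFAP2A no peak covered the outer start. The domain began 3441 bp inside the gene and ended 16809 bp inside it, and the short site lay 182 to 1497 bp beyond the 3′ end.

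LEF1, SOX10 and the TFAP2A domain were among the longest regions. Of the 12087 regions with a peak in all libraries, 99.8% were shorter than the LEF1 region, 99.7% shorter than SOX10 and 99.2% shorter than the TFAP2A domain. The MITF A and M regions exceeded 86.9% and 83.2% of them and PAX3 61.2%. The TFAP2A 3′ site is not one of those regions, because neither colony list has a peak in it.

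**Figure D1:**
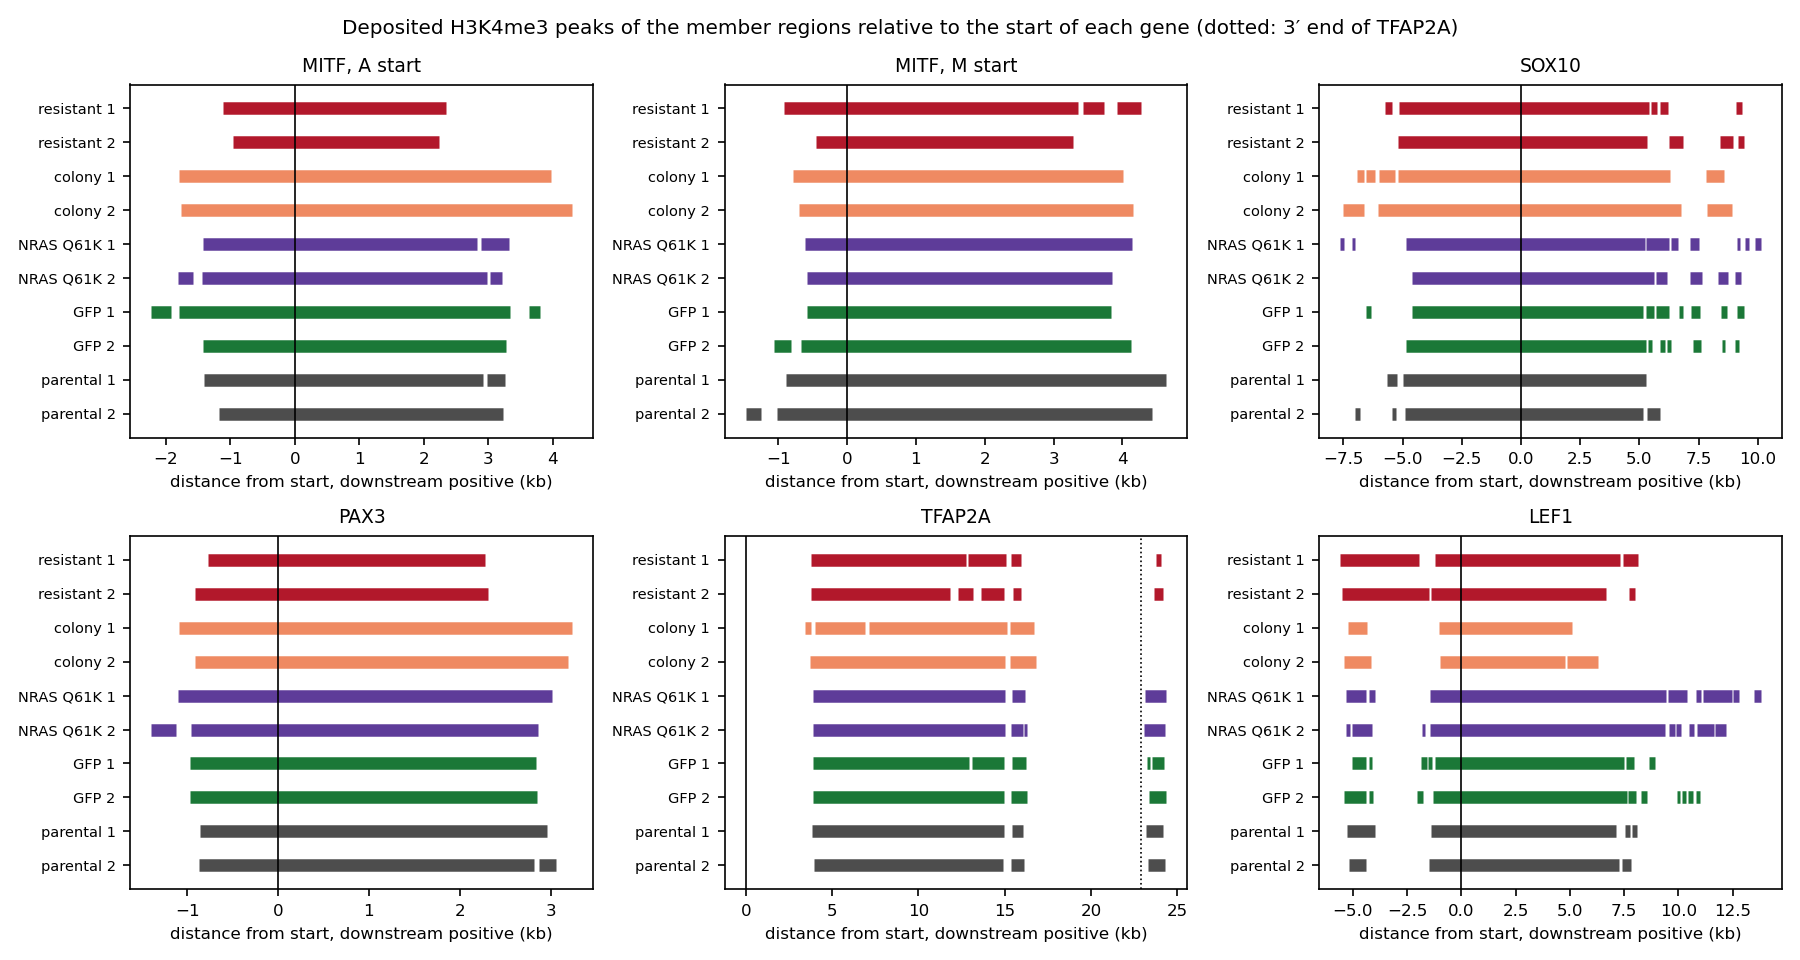
Deposited peaks at the 6 positions, 1 row per library, with distance from the start in kb on the horizontal axis (downstream positive; the dotted line is the 3′ end of TFAP2A). Peaks span the start at MITF A, MITF M, SOX10, PAX3 and LEF1, the TFAP2A domain starts 3441 bp inside the gene, resistant cells have the longest stretch before the LEF1 start, and colonies have no peak at the TFAP2A 3′ site.

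The lists differ in length between groups, and this touches every comparison. Resistant lists held 19401 and 19111 peaks, colony lists 21408 and 21573, NRAS Q61K lists 40648 and 37649, GFP lists 41806 and 45376, and parental lists 29258 and 30065. The shortest peak was 255 and 256 bp in resistant lists, 282 and 284 bp in colony lists, 153 and 151 bp in NRAS Q61K lists, 142 and 153 bp in GFP lists, and 202 and 180 bp in parental lists. Covered length, the bases of a region under peaks, was therefore centred on each library's median over the regions found in all libraries. Resistant libraries lay 0.19 and 0.22 below the mean on this log2 scale, and the other 8 between 0.07 below and 0.13 above it. A change in length reads as a change relative to that centre. Summit height, the overlapping extended reads at a peak's summit, was solved from the deposited fold and p-value. It depends on depth and fragment length, so it was centred in the same way. The bases and reads listed per library below, and the group orders drawn from them, are before centring. In bulk chromatin, a mark in fewer cells and a weaker mark in each cell cannot be told apart.

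Both MITF starts stood on high peaks over a high background. At the A start the summit held 175 and 169 reads in resistant cells, 254 and 254 in colonies, 175 and 152 in NRAS Q61K cells, 144 and 147 in GFP cells, and 204 and 167 in parental cells. At the M start it held 183 and 198 reads in resistant cells, 240 and 208 in colonies, 204 and 202 in NRAS Q61K cells, 183 and 202 in GFP cells, and 289 and 225 in parental cells. Colonies were the highest group at the A start and did not overlap any other group there, while at the M start parental and colony values overlapped. At least 99.3% of a library's peaks were lower than either summit. The solved background was 4.57 to 5.41 times the library's floor at the A start and 4.77 to 5.91 times at the M start, so the deposited fold was only 7.18 to 11.0 and 7.37 to 13.1.

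The high background was shared by the neighbourhood. Over peaks between 60 and 75 Mb of chromosome 3, a stretch chosen after its values were seen, the median background was 4.22 to 5.43 times the floor in the 10 libraries. Between 75 and 95 Mb it was 2.11 to 2.44 times, below 60 Mb it was at the floor in all 10, and above 95 Mb it was at most 1.04 times. The step was present in all 5 groups, parental cells included, and its cause was not tested. The deposited fold divides by this background, and its part in the MITF values was not tested. SOX10 lay at 1.27 to 1.97 times the floor, PAX3 at 1 to 1.09 times, and LEF1 and TFAP2A at the floor.

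**Figure D2:**
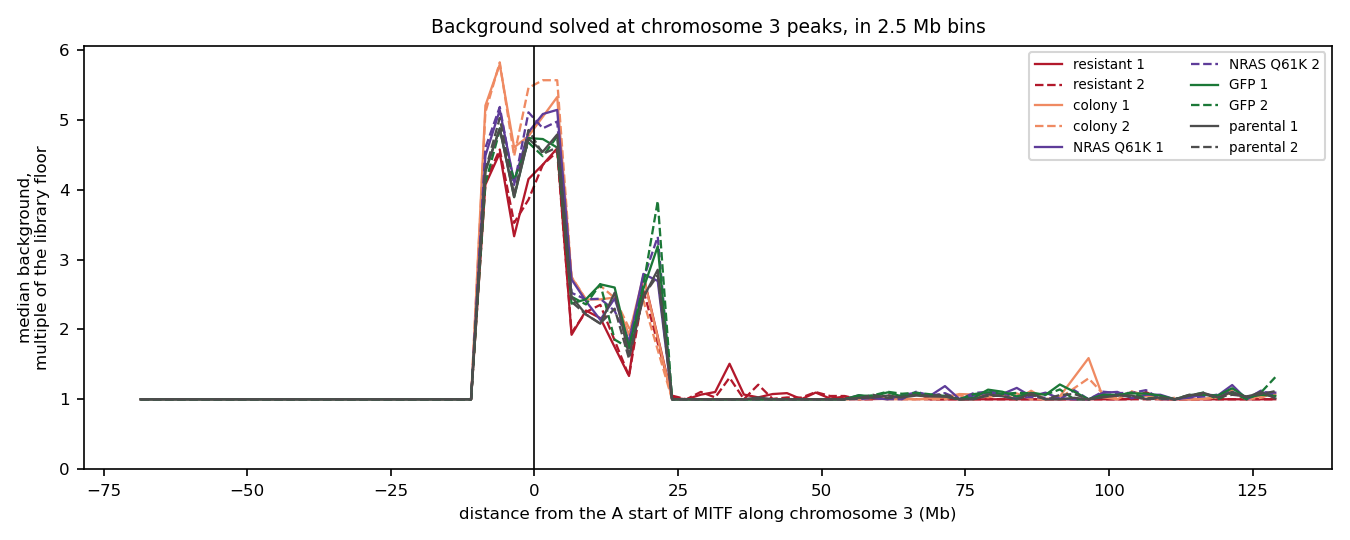
Median solved background at chromosome 3 peaks in bins, as a multiple of each library's floor, against distance from the MITF A start in Mb, with 1 line per library. The 10 lines rise together around MITF, to medians of 4.22 to 5.43 between 60 and 75 Mb, lie between 60 Mb and the chromosome start at a median of 1 over peaks, and reach single bins of up to 1.59 beyond 95 Mb.

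Before centring, the H3K4me3 domain at the MITF A start was widest in colonies and narrowest in resistant cells. It covered 3461 and 3205 bp in resistant cells, 5771 and 6068 bp in colonies, 4680 and 4852 bp in NRAS Q61K cells, 5624 and 4706 bp in GFP cells, and 4602 and 4416 bp in parental cells. Colony values lay above and resistant values below those of all other groups, and GFP and NRAS Q61K values overlapped. At the M start peaks covered 4905 and 3725 bp in resistant cells, 4804 and 4848 bp in colonies, 4748 and 4438 bp in NRAS Q61K cells, 4415 and 5050 bp in GFP cells, and 5531 and 5674 bp in parental cells. Both parental values lay above all others there before centring, and the other 4 groups overlapped. With centring, the resistant log2 change from parental cells was -0.22 ± 0.08 at the A start and -0.18 ± 0.12 at the M start, and neither passed.

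The ratio of A to M summit height within a library, which cancels depth, was 0.956 and 0.854 in resistant cells, 1.06 and 1.22 in colonies, 0.858 and 0.752 in NRAS Q61K cells, 0.787 and 0.728 in GFP cells, and 0.706 and 0.742 in parental cells. In reads, the A summit exceeded the M summit only in the colonies. The ratio of deposited fold was 1.15 and 1.33 in colonies and 1.03 and 0.890 in resistant cells. It was 0.734 to 0.922 in the libraries of the other groups. The ratio averaged 1.14 ± 0.12 in colonies and 0.724 ± 0.026 in parental cells (SD, n = 2 each). With 2 libraries against 2, an exact permutation test cannot go below p = 0.333, so the ratio is given as a description. The ratio of A to M background was 0.863 to 0.962 in the 10 libraries, with colonies at 0.915 and 0.911 and parental libraries at 0.962 and 0.96.

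**Figure D3:**
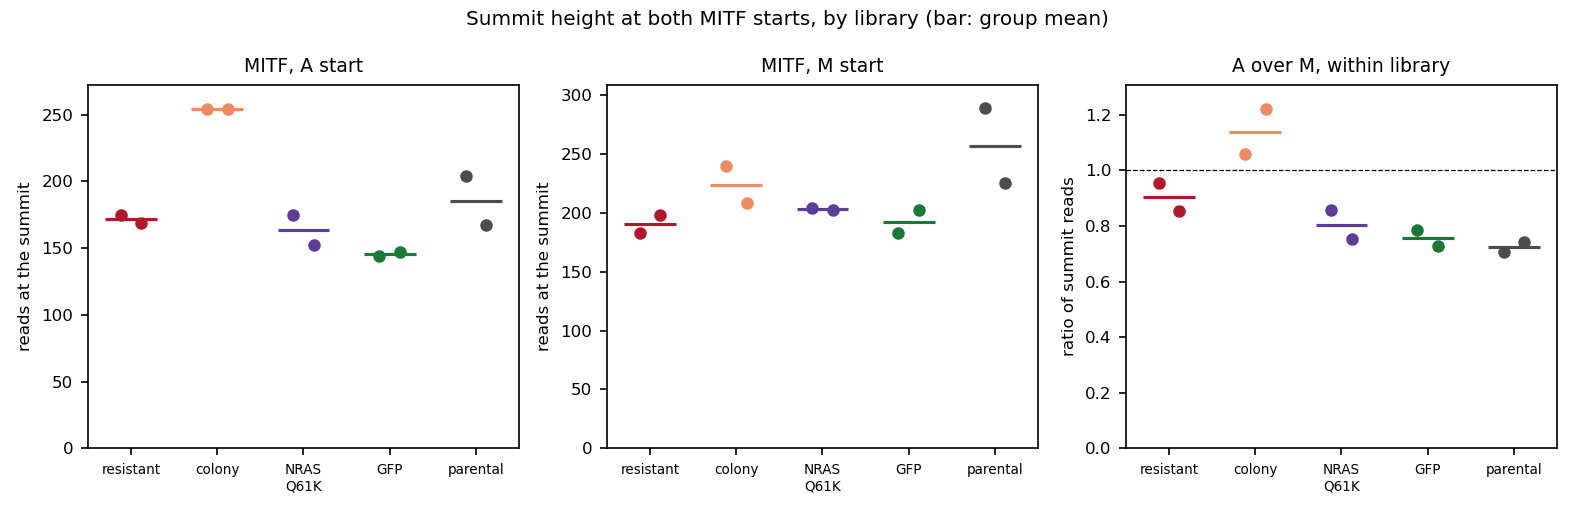
Reads at the summit of the MITF A and M peaks and their ratio within each library, with points for libraries and bars for group means of 2. Colonies reach 254 reads at the A start in both libraries, and only their ratios, 1.06 and 1.22, lie above 1 (dashed line).

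SOX10 carried H3K4me3 over more than 10 kb in every library. Its region was covered over 11735 and 11948 bp in resistant cells, 13618 and 14677 bp in colonies, 12629 and 11875 bp in NRAS Q61K cells, 11962 and 11412 bp in GFP cells, and 10664 and 10966 bp in parental cells. Before centring, parental values were the lowest and colony values the highest, without overlap with another group. With centring, the log2 change was -0.03 ± 0.06 from colonies to resistant cells and -0.01 ± 0.06 from parental to GFP cells. The peak over the start ran 4587 to 6026 bp upstream and 5134 to 6735 bp downstream, so the 10 kb window around the start was nearly filled in all groups, and the differences lay at the outer edges. Colonies had 6574 and 6892 bp covered upstream of the start, against 5407 and 5292 bp in parental cells. The summit held 153 and 155 reads in resistant cells, 144 and 136 in colonies, 124 and 112 in NRAS Q61K cells, 109 and 101 in GFP cells, and 146 and 110 in parental cells. Resistant summits were the highest and GFP summits the lowest.

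PAX3, which acts with SOX10 on the M start, had a narrower domain. It covered 3051 and 3223 bp in resistant cells, 4322 and 4110 bp in colonies, 4114 and 4091 bp in NRAS Q61K cells, 3809 and 3821 bp in GFP cells, and 3822 and 3866 bp in parental cells. Its summit held 78 and 69 reads in resistant cells, 102 and 99 in colonies, 93 and 95 in NRAS Q61K cells, 81 and 84 in GFP cells, and 108 and 86 in parental cells. Before centring, resistant cells were the lowest group in both measures, and parental and colony summits overlapped. With centring, the log2 length change from parental cells was -0.08 ± 0.07 in resistant cells and -0.13 ± 0.07 in GFP cells.

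The TFAP2A domain inside the gene had peaks in every library. It covered 11761 and 10686 bp in resistant cells, 12707 and 12813 bp in colonies, 11887 and 12031 bp in NRAS Q61K cells, 11708 and 12019 bp in GFP cells, and 11800 and 11745 bp in parental cells. Only the colony values stood clear of the rest before centring. With centring, the log2 change from parental cells was 0.13 ± 0.06 in resistant cells and 0.09 ± 0.06 in colonies. RefSeq on GRCh38.p14 lists a TFAP2A start 7268 bp inside the outermost one, a distance that falls within the domain's span of 3441 to 16809 bp. The summit held 60 and 65 reads in resistant cells, 78 and 83 in colonies, 88 and 80 in NRAS Q61K cells, 75 and 90 in GFP cells, and 90 and 64 in parental cells. Before centring, resistant summits were the lowest group, and the parental pair overlapped all 4 other groups. With centring, the log2 height change from parental to resistant cells was -0.07 ± 0.10.

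The short site past the 3′ end of TFAP2A was not found in every list. It was covered over 269 and 509 bp in resistant cells, 0 and 0 bp in colonies, 1267 and 1232 bp in NRAS Q61K cells, 879 and 1000 bp in GFP cells, and 972 and 946 bp in parental cells. Colonies had no peak, resistant cells a short one, and the other groups did not overlap with them. The deposited fold of its strongest peak was 3.07 and 3.19 in resistant cells, 10.9 and 10.4 in NRAS Q61K cells, 10.4 and 10.8 in GFP cells, and 6.66 and 6.83 in parental cells. At the resistant summits the height was 17 and 18 reads, and only 1.92% and 1.77% of each list's peaks were lower. These are near the weakest peaks that the lists hold, and an absent peak is not an absent mark at this depth.

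LEF1, the Wnt effector, had the longest region. Peaks covered 12822 and 12340 bp in resistant cells, 7015 and 8474 bp in colonies, 15170 and 14202 bp in NRAS Q61K cells, 10623 and 11711 bp in GFP cells, and 10323 and 9941 bp in parental cells. Before centring, no neighbouring groups overlapped in this order, from NRAS Q61K through resistant, GFP and parental cells to colonies. The order of the upper groups depends on centring. With it, the log2 change from parental cells was 0.50 ± 0.08 in resistant cells and 0.01 ± 0.08 in GFP cells. That of NRAS Q61K from GFP cells was 0.44 ± 0.08. The added length lay on opposite sides of the start in resistant and in NRAS Q61K cells. Upstream, 4854 and 5399 bp were covered in resistant cells, 1921 and 2268 bp in colonies, 2656 and 2772 bp in NRAS Q61K cells, 2429 and 2717 bp in GFP cells, and 2697 and 2243 bp in parental cells. Downstream, 7968 and 6941 bp were covered in resistant cells, 5094 and 6206 bp in colonies, 12514 and 11430 bp in NRAS Q61K cells, 8194 and 8994 bp in GFP cells, and 7626 and 7698 bp in parental cells. Resistant cells were thus highest upstream and NRAS Q61K cells highest downstream, each without overlap.

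Upstream of LEF1, resistant cells had a separate peak of 3627 and 4009 bp, with deposited fold 11.3 and 8.90. The longest separate upstream peak was 873 and 1263 bp in colonies, 941 and 948 bp in NRAS Q61K cells, 620 and 1007 bp in GFP cells, and 1300 and 773 bp in parental cells. Downstream, the peak over the start itself reached 9441 and 9398 bp into the gene in NRAS Q61K cells and 7516 and 7615 bp in GFP cells. Weaker separate peaks more than 9 kb into the gene were found in NRAS Q61K 1, NRAS Q61K 2 and GFP 2. The LEF1 summit held 78 and 74 reads in resistant cells, 69 and 68 in colonies, 109 and 88 in NRAS Q61K cells, 89 and 99 in GFP cells, and 108 and 80 in parental cells. Before centring, colonies were the lowest group in height as in length. With centring, the log2 height change was -0.18 ± 0.10 from parental cells to colonies. From colonies to resistant cells it was 0.10 ± 0.10, and neither height change passed.

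**Figure D4:**
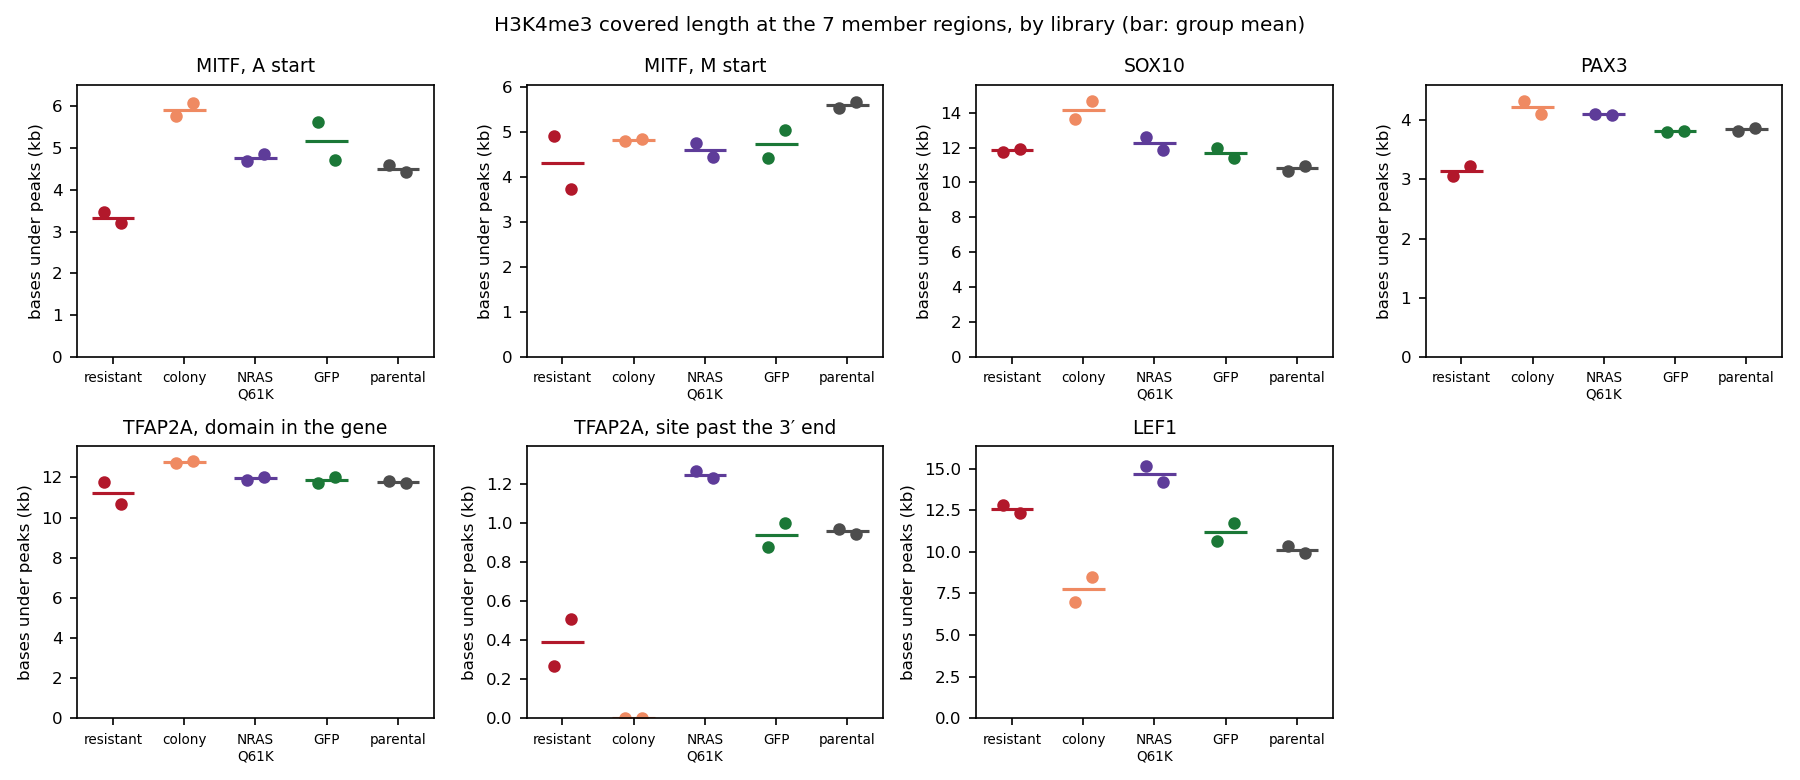
Bases under H3K4me3 peaks (kb), before centring, in each of the 7 regions, with points for libraries and bars for group means of 2. Colonies are highest at the MITF A start, SOX10 and the TFAP2A domain and lowest at LEF1 and the TFAP2A 3′ site, and resistant cells are lowest at the MITF A start and PAX3.

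Colonies differed from parental cells at 4 of the 7 regions. The MITF A domain and SOX10 were longer, while LEF1 was shorter and the TFAP2A 3′ site had no peak (2 higher and 2 lower at adjusted p under 0.05; limma over all regions, Benjamini-Hochberg). Over all 23153 regions tested, 21% were called, 4.29% longer and 16.7% shorter. The log2 change was 0.35 ± 0.08 (SE; adjusted p = 0.0174) at the MITF A start and 0.35 ± 0.06 (adjusted p = 0.00309) at SOX10. LEF1 changed by -0.41 ± 0.08 (adjusted p = 0.00796). At the TFAP2A 3′ site, 0 and 0 bp in colonies against 972 and 946 bp in parental cells gave an adjusted p of 0.000231, and no fold is given because colonies are at 0. PAX3 (0.10 ± 0.07), the MITF M start (-0.23 ± 0.12) and the TFAP2A domain (0.09 ± 0.06) did not pass. The median log2 change was 0.09 over the members and -0.05 over all regions. At SOX10 the value within 5 kb of the start alone was -0.02 (adjusted p = 0.921), since that window was almost fully covered in every library, and at LEF1 it was -0.13 (adjusted p = 0.161), while the MITF A call held at 0.35 (adjusted p = 0.0175). The SOX10 call was also lost once peaks under a −log10 q of 10 were dropped (0.0576), and that at the MITF A start without any 1 of the 4 libraries compared, at adjusted p of 0.0508 to 0.0983.

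The summit at the MITF A start was higher in colonies than in parental cells. Height was tested over the 12087 regions with a peak in all libraries, of which 6 are members, a test added after the data were seen. Height rose in colonies relative to parental cells at 4 of the 6 and fell at none, where 29.3% of all regions were called, 18.2% higher and 11.1% lower. The MITF A summit rose by 0.72 ± 0.09 (log2; adjusted p = 1.58e-08), while the M summit had a change of 0.07 ± 0.10 (adjusted p = 0.652). The difference between the starts was not tested beyond the ratio above. SOX10 rose by 0.40 ± 0.09 (adjusted p = 0.000289), the TFAP2A domain by 0.34 ± 0.10 (adjusted p = 0.0102) and PAX3 by 0.32 ± 0.10 (adjusted p = 0.00946). LEF1 did not pass, at -0.18 ± 0.10. The median log2 change was 0.33 over the members and 0.04 over all regions. Without centring, and with height divided by the local background, 1 of the 6 passed, the MITF A start at 0.46 (adjusted p = 0.00725) and 0.49 (adjusted p = 0.0345). The deposited fold at the M start was 8.85 and 8.26 in colonies and 11.3 and 12.3 in parental cells. At the A start the fold was 10.2 and 11.0 in colonies and 8.33 and 9.52 in parental cells. The solved SOX10 background was 1.71 and 1.95 times the floor in colonies and 1.44 and 1.44 times in parental cells, and the SOX10 change over background was 0.03 (adjusted p = 0.921). The PAX3 call was lost without colony 1 (adjusted p = 0.06) or parental 1 (adjusted p = 0.113), and that of the TFAP2A domain without colony 2 (adjusted p = 0.083) or parental 2 (adjusted p = 0.0906).

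Resistant cells differed from the same parental libraries at 3 of the 7 regions. LEF1 was longer by 0.50 ± 0.08 (log2; adjusted p = 0.00231) and SOX10 by 0.33 ± 0.06 (adjusted p = 0.0035), and the TFAP2A 3′ site was shorter by a change of -0.81 ± 0.24 (adjusted p = 0.0352). Over all regions 28.6% were called, 7.93% longer and 20.6% shorter. The MITF A start (-0.22 ± 0.08, adjusted p = 0.0845), the M start (-0.18 ± 0.12), PAX3 (-0.08 ± 0.07) and the TFAP2A domain (0.13 ± 0.06) did not pass. The median was -0.08 over the members and -0.07 over all regions. Without centring 5 of 7 were called, among them the MITF A start at -0.42 (adjusted p = 0.00829), the M start at -0.37 (adjusted p = 0.0484) and PAX3 at -0.28 (adjusted p = 0.00438), while SOX10 no longer passed at 0.13 (adjusted p = 0.0884). The call at the TFAP2A site was lost without resistant 1 (adjusted p = 0.212), parental 1 (0.084), parental 2 (0.105), NRAS Q61K 1 (0.0529) or NRAS Q61K 2 (0.0534), and with lists of equal length (0.0592), a pseudocount of 1000 bp (0.0624) or only the groups compared (0.0701).

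In height, SOX10 was the 1 of 6 summits that passed in resistant cells relative to parental cells, where 34.4% of all regions did, 18.1% higher and 16.3% lower. It rose by 0.49 ± 0.09 (log2; adjusted p = 9.75e-06). The MITF A summit had a change of 0.11 ± 0.09 and the M summit of -0.21 ± 0.10 (adjusted p = 0.0908), which passed when GFP 1 (0.0485) or GFP 2 (0.0476) was left out. The median was -0.08 over the members and 0.02 over all regions. The SOX10 call was lost without centring, at 0.28 (adjusted p = 0.192), where the MITF M summit passed instead at -0.42 (adjusted p = 0.00669), and with height over local background, at 0.09 (adjusted p = 0.707). The solved SOX10 background was 1.81 and 1.90 times the floor in resistant cells and 1.44 and 1.44 times in parental cells, and its part in the result was not tested.

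Resistant cells and colonies, which share the drug and its dose but not the time, differed at 3 of the 7 regions. The MITF A domain was shorter in resistant cells by a log2 change of -0.57 ± 0.08 (adjusted p = 0.00149), and LEF1 was longer by 0.91 ± 0.08 (adjusted p = 0.000104). The TFAP2A 3′ site, at 269 and 509 bp in resistant cells and 0 and 0 bp in colonies, gave an adjusted p of 0.0011, or 0.521 once peaks under a −log10 q of 10 were dropped. A peak of 269 bp is shorter than any in the colony lists, whose shortest peaks were 282 and 284 bp. The part of this limit in that p was not tested. Over all regions 22.5% were called, 11% longer and 11.5% shorter, and the median change was 0.04 over the members and 0.17 over all regions. The MITF M start (0.06 ± 0.12), SOX10 (-0.03 ± 0.06), PAX3 (-0.18 ± 0.07) and the TFAP2A domain (0.04 ± 0.06) did not pass. Without centring 6 of 7 passed, PAX3 at -0.40 (adjusted p = 0.000956), SOX10 at -0.25 (adjusted p = 0.00856) and the TFAP2A domain at -0.18 (adjusted p = 0.0222) among them.

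Height fell at 4 of the 6 member summits in resistant cells relative to colonies, where 41.5% of all regions were called, 18.2% higher and 23.3% lower. The MITF A summit had a log2 change of -0.61 ± 0.09 (adjusted p = 2.68e-07), PAX3 of -0.50 ± 0.10 (adjusted p = 3.36e-05), the TFAP2A domain of -0.41 ± 0.10 (adjusted p = 0.00122) and the MITF M summit of -0.28 ± 0.10 (adjusted p = 0.0198). LEF1 (0.10 ± 0.10) and SOX10 (0.09 ± 0.09) did not pass. The median was -0.35 over the members and -0.03 over all regions. Only the MITF A start passed without centring, and 2 of 6 passed with height over local background, where the MITF A start itself was at -0.38 (adjusted p = 0.0708) and the M start at -0.00 (adjusted p = 0.998). The M call was lost without resistant 1 (adjusted p = 0.201) or colony 1 (adjusted p = 0.316).

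Expression of NRAS Q61K was compared with GFP in libraries that share none with the drug comparisons. LEF1 alone passed, longer by a log2 change of 0.44 ± 0.08 (adjusted p = 0.0152). Thus 1 of 7 regions was called, against 7.23% of all regions, 5.06% longer and 2.18% shorter. The other 6 had changes of -0.06 ± 0.08 at the MITF A start, 0.01 ± 0.12 at the M start, 0.11 ± 0.06 at SOX10, 0.15 ± 0.07 at PAX3, 0.06 ± 0.06 at the TFAP2A domain and 0.40 ± 0.24 at its 3′ site. The median was 0.11 over the members and 0.05 over all regions. The LEF1 call was lost without NRAS Q61K 1 (adjusted p = 0.126), NRAS Q61K 2 (0.113) or GFP 1 (0.0917), and within 5 kb of the start its change was 0.06 (adjusted p = 0.669). No member summit changed in height by limma, none of the 6 at an unadjusted p under 0.05 either, where 1.64% of all summits were called, 1.34% higher and 0.298% lower.

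GFP cells were compared with parental cells in the same way. No region of the 7 passed in length by limma, and 1, the MITF M start at -0.36 ± 0.12, had an unadjusted p under 0.05 (0.0151; adjusted p = 0.161). Over all regions 4.36% were called, 2.67% longer and 1.69% shorter. The M summit was lower in GFP cells than in parental cells by a log2 change of -0.33 ± 0.10 (adjusted p = 0.0452), 1 of 6 where 3.76% of all summits were called, 1.32% higher and 2.44% lower. That call was lost without any single library other than GFP 2, at adjusted p of 0.0613 to 0.232.

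**Figure D5:**
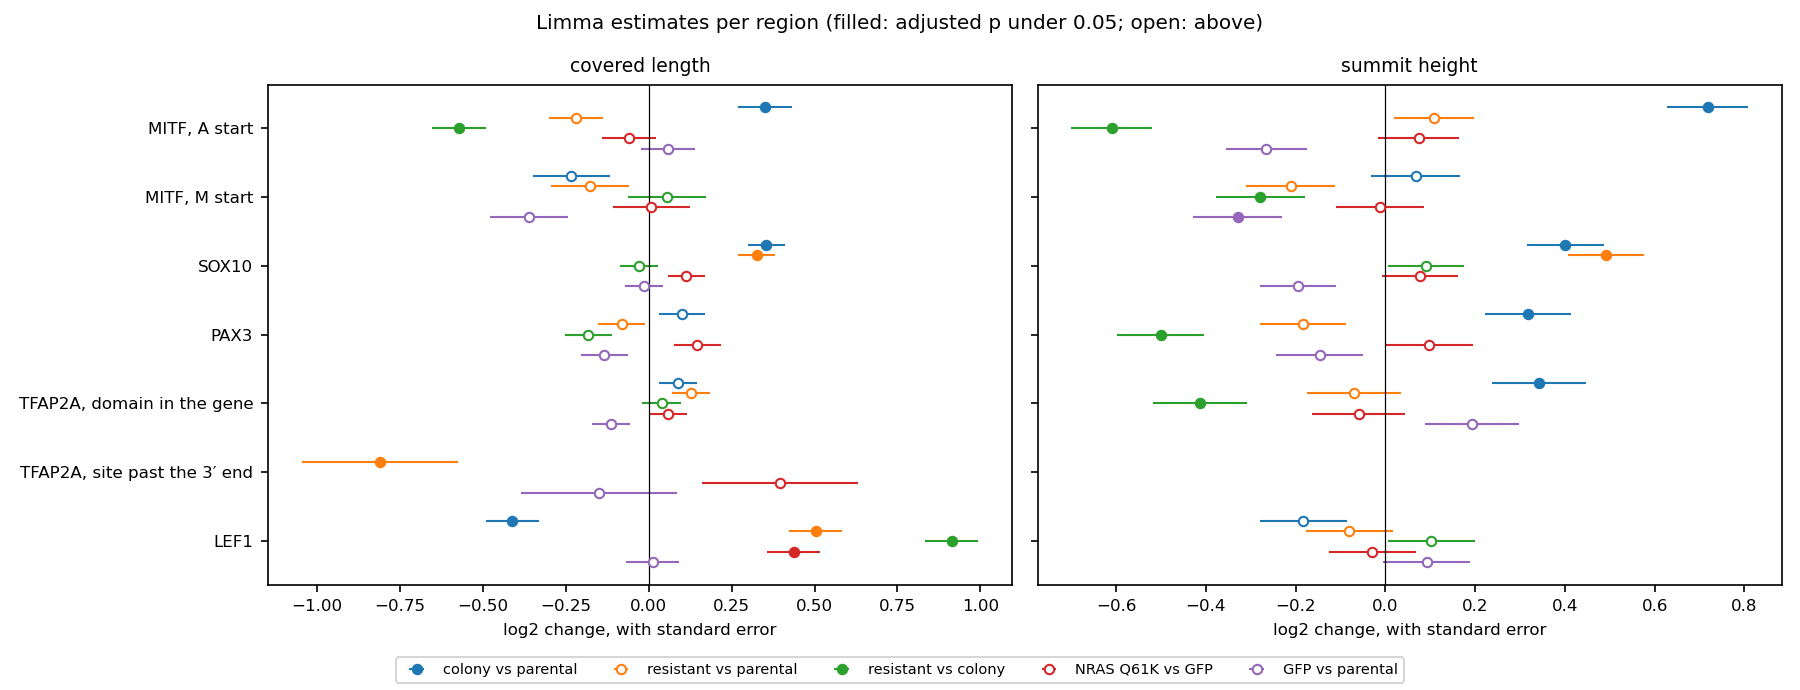
Limma log2 changes with standard errors for each region (rows) and comparison (colours), for covered length at left and summit height at right, filled where the adjusted p was under 0.05. Comparisons with colonies at the TFAP2A 3′ site are not drawn because colonies are at 0; the largest height change is the 0.72 at the MITF A start in colonies relative to parental cells.

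The difference between the resistant and the NRAS Q61K changes was tested directly. In length, 1 of 7 regions passed, the TFAP2A 3′ site, with a log2 difference of -1.21 ± 0.33 (adjusted p = 0.0356), while 23% of all regions were called, 5.54% higher and 17.5% lower. In height, SOX10 passed, with a difference of 0.41 ± 0.12 (adjusted p = 0.012), 1 of 6 where 17.6% of all summits were called, 8.25% higher and 9.38% lower. LEF1, longer in both comparisons, had a difference of 0.07 ± 0.11 (adjusted p = 0.746) over the whole region. Within 5 kb of the start the LEF1 difference was 0.53 (adjusted p = 0.00281). That window holds most of the upstream stretch of resistant cells. It leaves out the stretch farther into the gene that was added in NRAS Q61K cells, so it cannot compare the whole changes. The TFAP2A call was lost without any single library of the 4 groups other than resistant 2, at adjusted p of 0.0598 to 0.105, and the SOX10 call without NRAS Q61K 1 (adjusted p = 0.0597). Without centring the MITF M summit passed in place of SOX10, at -0.50 (adjusted p = 0.0479).

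Other regions followed some members closely across the 10 libraries in centred covered length. The measure was Pearson's r over the 10 libraries, which share depth and list length within groups, and it is given as a description. LEF1 was most like chr18:46469177-46479414 (r = 0.985) and chr17:66284042-66290061 (r = 0.977). The TFAP2A 3′ site was most like chr6:28784753-28786056 (r = 0.995) and chrX:9865447-9868105 (r = 0.989), each with 0 bp in both colony lists. SOX10 was most like chr13:27130925-27136581 (r = 0.973) and chr15:79723175-79726400 (r = 0.968), and the MITF A start most like chr7:100885903-100891735 (r = 0.957) and chr5:21457177-21461340 (r = 0.956).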

How the data were processed

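H3K4me3 was mapped by chromatin immunoprecipitation in 10 libraries, 2 for each of 5 groups taken from the sample titles. Each reaction took 15 µg of chromatin, and libraries were read as single 50 bp ends on 8 lanes, per the labels' protocols. Drug was renewed every 3 days. The 10 input samples were not used here. Nothing says that replicates came from separate cultures, and the spread behind the p-values may then be technical only. The members and lists were chosen with earlier results of these data known.

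The authors deposited 1 peak list per library. Per the submitters' processing notes, MACS2 2.1.2, deepTools 2.5.4, SAMtools and BWA were among the tools, with hg19 and GRCh37 as builds, and no role is stated. Deposited start and end positions were read as bases of GRCh37. The deposited score, 10 times −log10 q in whole numbers, was not used further. The deposited fold, a ratio, sets the summit over the local background, and the deposited −log10 p and −log10 q belong to the same summit. These are the authors' own values and describe or filter peaks within a list. The sources used here do not say how inputs and duplicates were treated.

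Peaks on the 22 autosomes and X were used, and 589 of 306884 were left out. Peaks at most 1000 bp apart, pooled over the libraries, were merged. Log2(bases under peaks + 200) per region, centred per library on the regions with a peak in all libraries, was fitted with limma 3.58.1 (R 4.3.3). The fit had 5 group means, eBayes with trend and Benjamini-Hochberg adjustment over the 23153 regions that 2 or more lists share, with a threshold of 0.05. All 7 member regions passed that filter. Log2 changes understate those of short regions.

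The lists hold no read counts. Summit reads k and background b were solved from fold = (k + 1)/(b + 1) and p = P(X > k) under a Poisson law. In every library 100% of peaks gave a whole k within 0.0005 in −log10 p. The lowest common background of a library, its floor, was 4.86 and 4.95 in resistant, 4.44 and 4.11 in colony, 3.87 and 3.40 in NRAS Q61K, 3.25 and 2.71 in GFP, and 5.00 and 3.54 in parental libraries. Log2 k at the highest summit was fitted in the same way for the 12087 regions with a peak in all libraries, a test added after the data were seen.

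Every member region is named. For each region called in covered length, the 2 regions most like it are named. Promoters came from RefSeq (GRCh38.p14), where 4 of the 5 genes matched, and SOX10 did not. The scripts were checked on simulated data, and alternatives are given in the closing section. Python 3.11.15, numpy 2.4.6, pandas 2.3.3, scipy 1.17.1 and matplotlib 3.10.9 were used.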

Additional observations from a re-analysis of the deposited data

Results flagged for a closer look

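The change at the TFAP2A 3′ site differed between the drug and the transgene comparison. Resistant minus parental was -0.81 and NRAS Q61K minus GFP 0.40 on the log2 scale of covered length, a difference of -1.207 (limma, adjusted p = 0.0356). The site is covered over 269 and 509 bp in resistant cells, 1267 and 1232 bp in NRAS Q61K cells, 879 and 1000 bp in GFP cells, and 972 and 946 bp in parental cells. The peaks of the resistant lists there are close to the weakest that those lists hold, and the part of list length in the difference was not tested. With all lists cut to 19111 peaks the difference was -1.35 (adjusted p = 0.0506).

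The change in SOX10 summit height also differed. Resistant minus parental was 0.49 and NRAS Q61K minus GFP 0.08 on the log2 scale, a difference of 0.4143 (limma, adjusted p = 0.012). The parental summits, at 146 and 110 reads, spread more than the resistant ones at 153 and 155. With height over local background the difference was 0.50 (adjusted p = 0.128).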

How the results depend on the processing

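In covered length, in colonies against parental cells 4 regions were called, and 1 within the 5 kb windows alone, where SOX10 turned to -0.018 (adjusted p = 0.921). In resistant against parental cells 3 were called, and 5 without centring. In resistant cells against colonies 3 were called, and 6 without centring. In NRAS Q61K against GFP cells the 1 call became 0 with lists of equal length, merging of overlapping peaks only, no centring, only the groups compared, no trend, and the windows alone. The difference of the drug and transgene changes went from 1 call to 0 with lists of equal length or with regions in all libraries, and to 2 with merging of overlapping peaks only or no centring. Fewer libraries or regions enter some of these fits; otherwise the cause was not tested.

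In summit height, the 4 calls in colonies against parental cells became 1 over local background and 1 without centring. The 1 call in resistant against parental cells became 0 over background. The 4 calls in resistant cells against colonies became 2 over background and 1 without centring. In GFP against parental cells the 1 call became 0 over background, without centring, with only the groups compared and without trend. The difference of changes went from 1 to 0 over background and without trend. Without trend the length call at the MITF A start in colonies was lost (adjusted p = 0.0582).

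Leaving out each library in turn gave, in colonies against parental cells, 3 to 4 calls in length and 3 to 4 in height. It gave 2 to 4 and 1 to 2 calls in resistant against parental cells, 3 to 3 and 3 to 4 in resistant cells against colonies, and 0 to 1 and 0 to 0 in NRAS Q61K against GFP cells. It gave 0 to 0 and 0 to 1 calls in GFP against parental cells, and 0 to 1 in both for the difference of changes. Outside these counts of calls, the values of called single regions and the number of peaks near the positions gave 350 results that kept direction and side of the threshold or stayed close, 71 that kept direction only, and 1 that reversed. Some of these fits leave out a library of neither compared group, which can change the p but not the direction. The number of peaks near the positions was 116 within 5 kb, 97 within 2 kb and 228 within 10 kb.

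Replicate numbers did not pair the libraries: the correlations of same-numbered deviations between compared groups were 0.00181, 0.0164, -0.0206, 0.0286 and 0.00188. With the replicate number as a block, the member calls were 4 in colonies against parental cells, 3 in resistant against parental cells, 3 in resistant cells against colonies, 1 in NRAS Q61K against GFP cells, 0 in GFP against parental cells and 1 for the difference of changes in length. In height they were 4, 1, 4, 0, 1 and 1 for the same comparisons. All 12 counts equal those without the block. The lists hold called peaks only, so a mark below a library's threshold is not seen, and resistant and colony lists are the shortest.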

Other observations

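In resistant 1 the strongest PAX3 and LEF1 peaks had the same deposited fold, 13.5, and −log10 q, 61.2, and so did they in parental 1, at 18.2 and 98.0. In each case both summits held the same number of reads, 78 in resistant 1 and 108 in parental 1, over the floor background of the library.

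The LEF1 window in RefSeq starts 2631 bp inside the outer edge of the gene on GRCh38.p14, so it does not belong to the start used here. It held 9 CpG pairs and 2 Sp motifs. RefSeq also lists an MITF start 24347 bp inside the outermost one, with 8 CpG pairs and none of the 6 motifs in its window.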
